A study of Mus musculus with 15 samples.

Results

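Mlc1, Hepacam, Gja1, Gjb6, Slc4a4, Aqp4 and Gfap were followed across 5 groups of sorted brain tumour and neurosphere cells. These 7 genes, of 18193 with a probe set, encode proteins of the astrocyte membrane, its gap junctions and its filaments. They were taken by gene symbol in the array annotation, which gave 21 probe sets. The list was drawn up with differences of these arrays between tumour and neurosphere cells already known. Those differences are therefore given below as descriptions with no test, and only comparisons between sorted fractions and between the tumour lines were tested.

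In the brain, MLC1 is a membrane protein of astrocyte endfeet, and the adhesion molecule HEPACAM (GlialCAM) binds it and brings it to contacts between astrocytes. The connexins GJA1 (connexin 43) and GJB6 (connexin 30) form the channels of astrocyte gap junctions, through which neighbouring astrocytes share ions and small metabolites. SLC4A4 (NBCe1) carries sodium together with bicarbonate, AQP4 is the water channel of the endfoot, and GFAP is the intermediate filament protein by which astrocytes are most often recognised.

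The tumour groups were tumorspheres, free-floating cultures, of lines 3447 and 4346. Both came from brain tumours of S100beta-verbB mice that were p53-/- or p53+/-, in which the S100beta promoter drives the viral erbB oncogene and p53 is lost in both copies or a single one. Each tumorsphere line was grown intracerebrally in immunodeficient hosts of the strain NOD.Cg-Prkdc<scid>Il2rg<tm1Wjl>/SzJ, which lack mature lymphocytes, and then cultured again and sorted by flow cytometry. The groups were 3447 side population (SP) cells, 3447 non-SP cells, 4346 SP cells, neurosphere SP cells and neurosphere non-SP cells, with 3 arrays each. SP cells are those that retain little of a DNA dye because membrane pumps export it. The neurospheres were untransformed cultures from mice of the same 2 genotypes, so the controls carried the transgene and the p53 alleles too. Each tumour line went back to 1 tumorsphere isolate, so its 3 arrays measure the spread between host mice and cultures, not between tumours. The study description traces the neurosphere replicates to 3 independent mice, but elsewhere to hosts that had received neurospheres, and which of these holds is uncertain.

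The arrays recorded MAS5 signals, a linear intensity per probe set, and median signals per array ran from 40.0 to 89.3. The highest median belonged to array 3 of the 3447 SP, whose mean rank correlation with the other arrays of the group, 0.855, was the lowest. In the 4346 SP, array 3 had an actin 3' to 5' signal ratio of 5.30, against 2.49 to 3.29 on the other arrays. Among 8 oligodendrocyte lineage markers on the array, the summed signal was 24683 to 27681 in 3447 SP, 34257 to 36001 in 3447 non-SP and 31980 to 39727 in 4346 SP, against 10330 to 18947 in neurosphere SP and 12491 to 15754 in neurosphere non-SP, where Sox10 and Mbp lay below the array median on every array. Sums of 10 astrocyte and radial glia markers were 59416 to 68508 on the tumour arrays and 65354 to 92628 on the neurosphere arrays. The part of this difference in marker content in the results below was not tested. In RNA from sorted cultures, fewer cells of a type and less RNA per cell cannot be told apart.

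RefSeq promoter windows on mouse assembly GRCm38.p6, 250 bases before to 50 bases after an annotated start, were searched for 6 of the genes (7 windows), with Aqp4 left out. The windows of Mlc1 (chr15:88978504-88978803, minus strand), Gja1 (chr10:56377050-56377349, plus strand) and Gfap (chr11:102897151-102897450, minus strand) are shown because these genes carry the 3 patterns described below: a low signal in both tumour lines, a signal that differs between the lines, and overlap of all groups. Capitals mark the AP-1 letters TGANTCA in Gja1 and the STAT letters TTCNNNGAA in Gfap.
Mlc1: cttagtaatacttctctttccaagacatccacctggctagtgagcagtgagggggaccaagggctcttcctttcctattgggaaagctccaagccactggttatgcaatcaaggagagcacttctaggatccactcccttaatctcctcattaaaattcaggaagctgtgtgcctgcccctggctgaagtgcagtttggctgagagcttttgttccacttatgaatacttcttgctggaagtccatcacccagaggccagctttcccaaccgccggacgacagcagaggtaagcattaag
Gja1: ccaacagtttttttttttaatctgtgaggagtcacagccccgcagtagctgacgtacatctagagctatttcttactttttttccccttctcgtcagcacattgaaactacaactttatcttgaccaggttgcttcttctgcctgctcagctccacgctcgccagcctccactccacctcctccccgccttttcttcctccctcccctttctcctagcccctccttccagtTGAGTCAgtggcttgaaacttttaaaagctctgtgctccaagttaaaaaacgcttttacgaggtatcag
Gfap: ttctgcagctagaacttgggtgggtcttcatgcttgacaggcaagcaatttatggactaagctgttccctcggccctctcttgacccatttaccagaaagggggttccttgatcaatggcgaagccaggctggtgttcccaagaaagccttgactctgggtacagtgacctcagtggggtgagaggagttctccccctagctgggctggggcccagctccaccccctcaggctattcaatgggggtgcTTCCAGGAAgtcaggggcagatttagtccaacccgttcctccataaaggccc
The AP-1 match, TGAGTCA, lay at bases -19 to -13 from the annotated start of Gja1, and the STAT match, TTCCAGGAA, at bases -2 to 6 of Gfap. Hepacam held the SOX letters ACAAAG at bases 0 to 5, and the windows of Mlc1, Gjb6 and Slc4a4 held none of the 4 motifs searched on both strands, the last of them the palindromic NFI motif. Of 32851 windows of 300 bases across the genome's genes, 7.81% held the AP-1 letters, 8.3% the STAT letters, 18.7% the SOX letters and 0.0365% the NFI motif. The windows of Mlc1 and Slc4a4 lie at starts inside the annotated genes. That of Hepacam begins at the first base of its annotated gene, so its start lies inside the gene too. The starts used in these cells were not measured. A match is a description of the letters in the window, and no match says only that the letters are not there.

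Mlc1 was bright in neurospheres and near background in both tumour lines. Its signal was 68.7, 40.7 and 63.2 on the 3447 SP arrays, 33.2, 3.31 and 7.37 on the 3447 non-SP arrays and 21.1, 0.745 and 4.45 on the 4346 SP arrays, against 9037, 11440 and 6436 on the neurosphere SP arrays and 7810, 4875 and 7345 on the neurosphere non-SP arrays. All 9 tumour arrays lay far below all 6 neurosphere arrays, and 8 of the 9 were below the median of their own array, a level near background. On the log2 scale of normalized signal plus 16, the difference from neurosphere SP was -7.12 ± 0.43 (SE) for 3447 SP and -8.39 ± 0.43 for 4346 SP. In non-SP cells it was -7.69 ± 0.43. With tumour signals this low, the size depends on the added constant. The group means fell into an upper level, where neurosphere SP and non-SP overlapped, and a lower level near background, where no order is read among the 3 tumour groups.

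Hepacam, the partner of MLC1, had a moderate signal. It read 49.0, 26.8 and 96.4 in 3447 SP, 41.6, 90.8 and 47.0 in 3447 non-SP and 86.8, 97.7 and 111 in 4346 SP, against 496, 407 and 186 in neurosphere SP and 389, 236 and 145 in neurosphere non-SP. Every tumour array was below every neurosphere array, but the distance was much shorter than for Mlc1. The log2 difference was -2.57 ± 0.38 for 3447 SP against neurosphere SP, -1.55 ± 0.38 for 4346 SP against neurosphere SP and -1.66 ± 0.38 for 3447 non-SP against neurosphere non-SP. From low to high, the means were 57.4 ± 35.6 in 3447 SP, 59.8 ± 27.0 in 3447 non-SP and 98.6 ± 12.2 in 4346 SP, against 257 ± 123 in neurosphere non-SP and 363 ± 160 in neurosphere SP (SD, n = 3 each). Both neurosphere groups overlapped, and so did both 3447 groups. A dimmer probe set of Hepacam ran from 6.59 to 76.3 on the tumour arrays and from 37.9 to 163 on the neurosphere arrays.

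Gja1, which encodes connexin 43, was the member with the largest difference between the SP cells of the tumour lines. Its brightest probe set read 436, 10.1 and 129 in 3447 SP, 1.13, 93.9 and 9.997 in 3447 non-SP and 2121, 2369 and 1039 in 4346 SP. In neurosphere SP it read 6544, 11188 and 3960, and in neurosphere non-SP 4131, 5819 and 2956. Line 3447 was low on every array with a wide spread, line 4346 was intermediate on all 3, and both neurosphere groups were higher still. The log2 difference was -5.80 ± 0.75 for 3447 SP and -1.90 ± 0.75 for 4346 SP, both against neurosphere SP, and -6.72 ± 0.75 for 3447 non-SP against neurosphere non-SP. The means were 192 ± 220 in 3447 SP, 35.0 ± 51.2 in 3447 non-SP and 1843 ± 707 in 4346 SP, against 7231 ± 3662 in neurosphere SP and 4302 ± 1440 in neurosphere non-SP (SD, n = 3 each). In the order of these means, neighbours overlapped within line 3447 and within neurospheres. Of 6 probe sets of Gja1, 5 passed the filter on low signals and gave differences of -6.30 to -4.55 for 3447 SP against neurosphere SP. The sixth stayed between 9.89 and 49.9 on all 15 arrays.

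Gjb6, the connexin 30 gene and the other main astrocyte connexin, read at most 25.3 on any array and was below the array median on all 15. Its signal was 16.9, 4.30 and 5.54 in 3447 SP, 1.32, 13.4 and 0.750 in 3447 non-SP and 6.56, 8.43 and 2.87 in 4346 SP, against 24.6, 14.4 and 16.8 in neurosphere SP and 25.3, 3.64 and 9.79 in neurosphere non-SP. At this level no order between groups can be read, and Gjb6 was not among the genes tested.

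**Figure D1:**
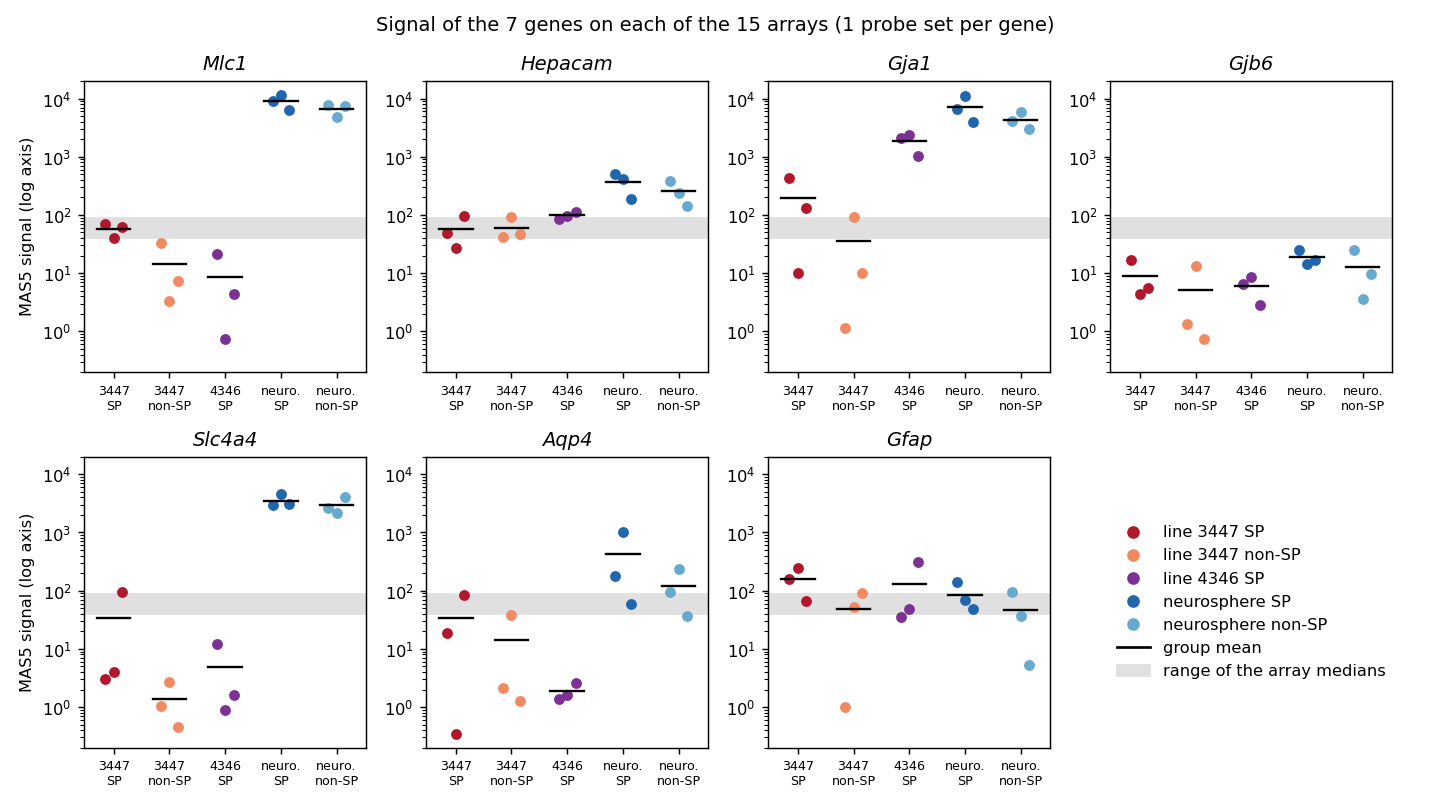
MAS5 signal (log axis) of the 7 genes on each of the 15 arrays, 1 panel per gene and 1 column per group, with points for arrays, bars for group means and a band for the range of array medians, 40.0 to 89.3. Mlc1 and Slc4a4 lie in or below the band on the tumour arrays apart from a Slc4a4 value of 95.5, Gja1 stays at 1039 or more in 4346 SP, Gjb6 lies under the band throughout and Gfap overlaps between all groups.

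Slc4a4, the bicarbonate transporter gene, had the same shape as Mlc1. Its brightest probe set read 3.09, 4.08 and 95.5 in 3447 SP, 1.05, 2.68 and 0.457 in 3447 non-SP and 12.1, 0.876 and 1.63 in 4346 SP, against 2937, 4588 and 3047 in neurosphere SP and 2607, 2158 and 4126 in neurosphere non-SP. A single tumour array, array 3 of the 3447 SP, was above its own median, and it is the array with the highest median. The log2 difference was -6.74 ± 0.44 for 3447 SP against neurosphere SP, -7.28 ± 0.44 for 4346 SP against neurosphere SP and -7.33 ± 0.44 for 3447 non-SP against neurosphere non-SP. The 3 other probe sets that passed the filter were dimmer in neurospheres and gave smaller differences, down to -1.96, -2.32 and -1.50 in the same comparisons. The group means fell into 2 levels, with neurosphere SP and non-SP overlapping at the upper one and the 3 tumour groups near background at the lower one.

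Aqp4, the water channel gene, was present at a modest and variable level in neurospheres. It read 18.5, 0.338 and 84.7 in 3447 SP, 2.16, 38.6 and 1.29 in 3447 non-SP and 1.39, 1.64 and 2.59 in 4346 SP, against 178, 1027 and 59.4 in neurosphere SP and 93.4, 237 and 37.3 in neurosphere non-SP. Neurosphere array 2 was the highest in both fractions, and the largest 3447 SP signal, 84.7, exceeded the lowest neurosphere SP signal as deposited but not after normalization. The same held for non-SP cells, 38.6 in line 3447 against 37.3 in neurospheres. The log2 difference was -2.97 ± 0.79 for 3447 SP against neurosphere SP, -3.74 ± 0.79 for 4346 SP against neurosphere SP and -2.13 ± 0.79 for 3447 non-SP against neurosphere non-SP. Array 2 of the neurosphere SP weighed on the SP values, which without it were -1.92 for 3447 SP and -2.70 for 4346 SP, and without array 3 of the neurosphere SP were -3.87 and -4.64. Both other Aqp4 probe sets lay between 0.702 and 52.7 on all arrays.

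Gfap did not follow the others. The probe set that represents it, with the highest mean log2 value, read 156, 247 and 66.0 in 3447 SP, 0.995, 53.3 and 92.4 in 3447 non-SP and 34.8, 48.7 and 307 in 4346 SP, against 139, 69.5 and 49.0 in neurosphere SP and 95.1, 37.1 and 5.21 in neurosphere non-SP. All groups overlapped, and the log2 difference was 0.41 ± 0.81 for 3447 SP against neurosphere SP, 0.28 ± 0.81 for 4346 SP against neurosphere SP and 0.06 ± 0.81 for 3447 non-SP against neurosphere non-SP. The high 4346 SP value came from array 3, the array with the high actin 3' to 5' ratio, where the other probe sets of Gfap read 524 and 429.7 against 15.8 to 47.0 on the other arrays of that group. The probe sets of Gfap did not give the same picture: the third read 131, 199 and 120.2 in 3447 SP, 1.77, 30.1 and 47.5 in 3447 non-SP and 20.6, 47.0 and 429.7 in 4346 SP, against 33.2, 28.3 and 4.23 in neurosphere SP and 3.60, 22.5 and 16.1 in neurosphere non-SP. On that probe set all 3447 SP arrays lay above all neurosphere SP arrays and all 3447 non-SP arrays. Tested on its own, it differed by 1.87 ± 0.69 log2 units between 3447 SP and 3447 non-SP (limma adjusted p = 0.640).

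**Figure D2:**
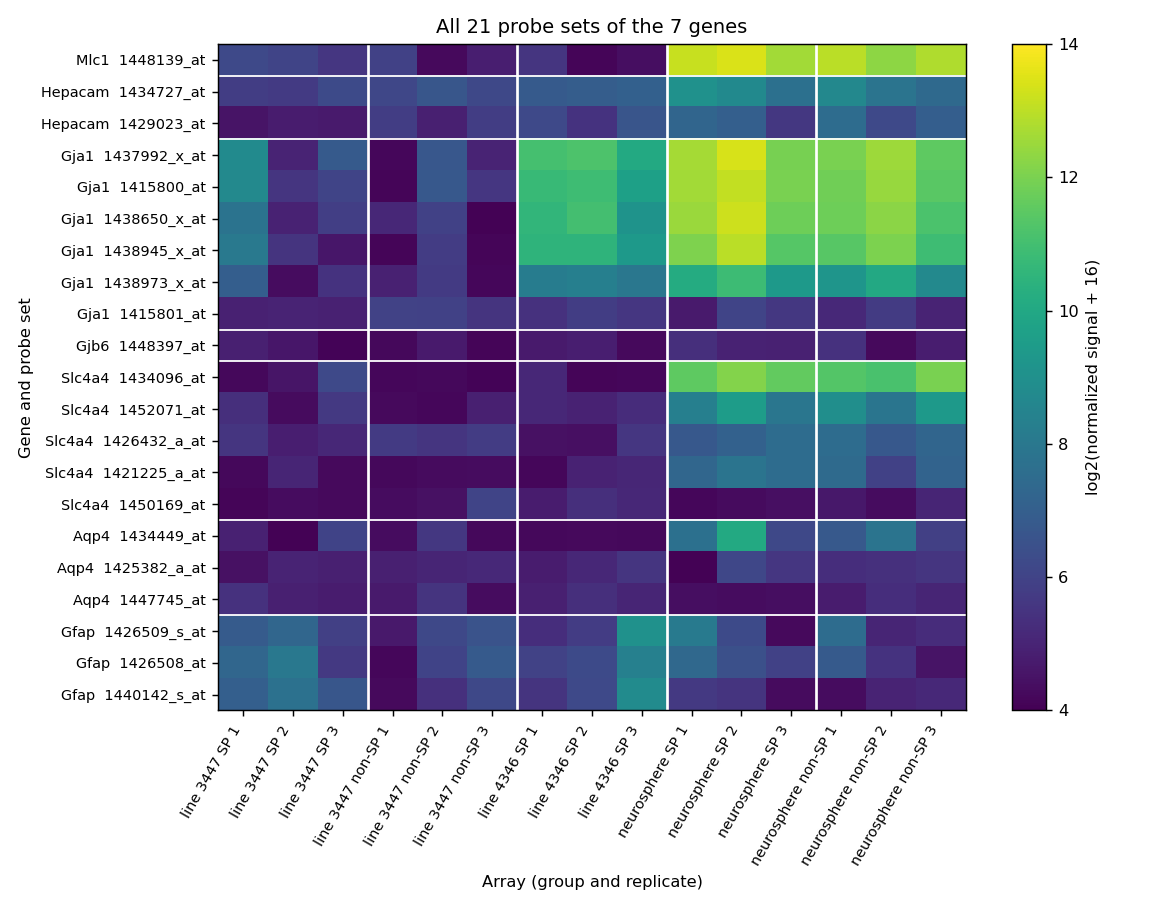
Heat map of log2(normalized signal + 16) for all 21 probe sets of the 7 genes (vertical axis) on the 15 arrays (horizontal axis, by group and replicate). Bright neurosphere columns stand beside dark tumour columns for Mlc1 and Slc4a4, 5 probe sets of Gja1 are intermediate in 4346 SP, and the Gfap probe sets show single bright arrays.

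Counted together after normalization, 5 of the 6 genes tested had all 3 tumour arrays below all 3 neurosphere arrays in each of the 3 tumour comparisons, and Gfap overlapped in each. Of all 11908 genes, 17.8% separated in this way in 3447 SP against neurosphere SP, 17.4% in 4346 SP against neurosphere SP and 17.5% in 3447 non-SP against neurosphere non-SP. The members were chosen on contrasts of this kind, so nothing is read from their count. Aqp4 also passed the filter on low signals through the neurosphere arrays alone, and Slc4a4 and Mlc1 did so apart from 1 array of 3447 SP each. In all, 16 of the 21 probe sets passed. The comparisons of 3447 SP and of 4346 SP share the same neurosphere SP arrays.

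Whether the lines differ was tested between their SP cells, since line 4346 has no non-SP arrays. Gja1 was lower in 3447 SP than in 4346 SP, with 192 ± 220 against 1843 ± 707 (SD of deposited signals, n = 3 each), and 1 of the 3447 SP arrays was below its median. The log2 difference of normalized signal plus 16 was -3.90 ± 0.75 (95% confidence interval -5.50 to -2.30, limma adjusted p = 0.0132 over all genes), and the groups did not overlap. The SE, interval and p rest on a spread shared over all 5 groups, not on the compared arrays alone. The SD of log2 values was 1.89 in 3447 SP and 0.62 in 4346 SP. Gja1 was the 1 member of the 6 that passed, where 1.19% of all genes were called lower and 0.462% higher. All 5 Gja1 probe sets kept by the filter passed when each probe set was tested on its own, although each was above the array median on only 1 or 2 of the 3447 SP arrays, with differences of -4.10 ± 0.69 to -2.58 ± 0.56 and limma adjusted p from 0.00390 to 0.0325. The call was close to the threshold in the main gene-wise result: without array 2 of the 3447 SP the log2 difference was -2.97 with an adjusted p of 0.0542, without array 3 of the 3447 SP it was -3.91 with 0.0540, and without both arrays that stood apart (array 3 of each SP group) it was -4.26 with 0.0863.

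The other members did not pass between the lines. Mlc1 was 1.27 ± 0.43 log2 units higher in 3447 SP than in 4346 SP (interval 0.37 to 2.18, limma adjusted p = 0.159), with no overlap but with all but 1 of these 6 arrays below the array median. Hepacam gave -1.02 ± 0.38 (interval -1.82 to -0.22, limma adjusted p = 0.197), with no overlap after normalization. As deposited, its highest 3447 SP signal, 96.4, exceeded its lowest 4346 SP signal, 86.8. Only 1 of its 3447 SP arrays was above the array median. No overlap in either direction was common among all genes in this comparison, 9.01% of which lay wholly above and 10.6% wholly below. Slc4a4 gave 0.54 ± 0.44 (limma adjusted p = 0.574), Aqp4 0.77 ± 0.79 (0.659) and Gfap 0.13 ± 0.81 (0.954), and these groups overlapped. Aqp4 was below the array median on all 6 of these arrays and Slc4a4 on all but 1, so nothing is read from their values. Gja1, Mlc1 and Hepacam were the 3 members with an unadjusted p under 0.05, as were 1981 of all genes.

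**Figure D3:**
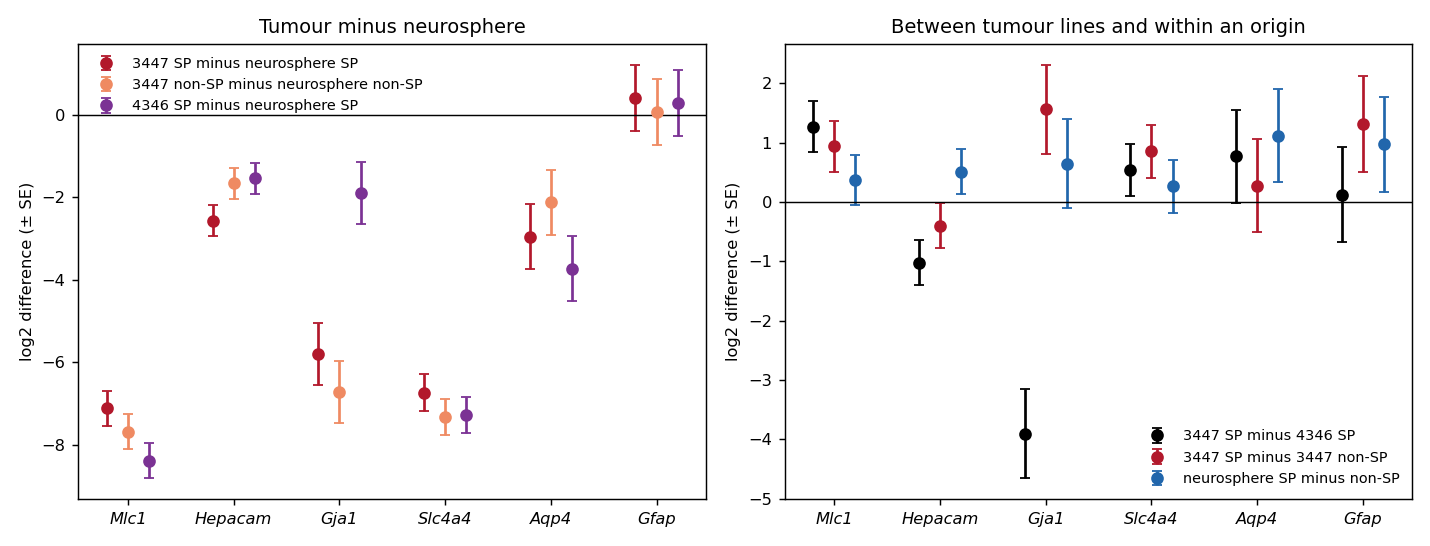
Log2 difference (vertical axis, ± SE) of the 6 genes tested (horizontal axis), in the 3 described comparisons of tumour with neurosphere cells and in the tested comparisons of SP with non-SP cells and of the lines. Gja1 at -3.90 is the called value among the tested comparisons, and Gfap is near 0 in the described ones.

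SP cells were compared with non-SP cells of the same origin to see whether the dye-excluding fraction differs in these genes. In line 3447, 0 of the 6 genes passed (limma), where 0.0084% of all genes were called higher and 0% lower. The log2 difference of SP over non-SP was 0.94 ± 0.43 for Mlc1 (interval 0.04 to 1.84, adjusted p = 0.675), -0.40 ± 0.38 for Hepacam (0.885) and 1.56 ± 0.75 for Gja1 (interval -0.04 to 3.16, 0.700). It was 0.85 ± 0.44 for Slc4a4 (0.733), 0.28 ± 0.79 for Aqp4 (0.970) and 1.32 ± 0.81 for Gfap (0.785). Aqp4 was below the array median on every array of line 3447, so nothing is read from its value. Mlc1 was the 1 member with an unadjusted p under 0.05, as were 859 genes. As 5 of the 6 Mlc1 arrays of line 3447 were below the array median, no order is read from that value. No order is read from Slc4a4, the 1 member whose arrays did not overlap after normalization (SP above), since 5 of its 6 arrays were below the array median. Of all genes, 9.07% lay wholly above and 8.44% wholly below. Gja1 varied by over an order of magnitude within each 3447 group, so the interval of its difference is wide.

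In neurospheres, where Mlc1, Gja1 and Slc4a4 were bright and the others moderate or dim, 0 of the 6 genes passed (limma), and 0.0084% of genes were called in each direction. No member had an unadjusted p under 0.05, which 428 genes had, and all members overlapped, where 4.37% of genes lay wholly above and 3.23% wholly below. The log2 difference of SP over non-SP was 0.37 ± 0.43 for Mlc1 (interval -0.53 to 1.27), 0.51 ± 0.38 for Hepacam (-0.29 to 1.31) and 0.65 ± 0.75 for Gja1 (-0.95 to 2.24). For Slc4a4 it was 0.26 ± 0.44 (-0.67 to 1.20), for Aqp4 1.12 ± 0.79 (-0.55 to 2.79) and for Gfap 0.97 ± 0.81 (-0.74 to 2.68). The Aqp4 value rests on array 2 of the neurosphere SP, without which it was 0.078. The SEs and intervals of this comparison come from the fit with no pairing, in which the spread of a gene is shared over all 5 groups. For Gja1 the SD of log2 values was 1.89 in 3447 SP and 1.29 in 3447 non-SP, against 0.72 in neurosphere SP and 0.50 in neurosphere non-SP. Its SE is therefore wider than the neurosphere arrays alone would give. The arrays of equal number deviated together in neurospheres, so each pair can be read on its own. The SP over non-SP signal ratio of Gja1 was 1.58, 1.92 and 1.34 in pairs 1, 2 and 3. That of Aqp4 was 1.90, 4.33 and 1.59, and that of Hepacam 1.28, 1.72 and 1.29. On the probe sets that represent them, these 3 genes and Gfap were higher in SP in 3 of 3 pairs. Mlc1 (1.16, 2.35 and 0.876) and Slc4a4 (1.13, 2.13 and 0.738) were higher in pairs 1 and 2 and lower in pair 3. The dimmer probe set of Hepacam was lower in SP in pairs 1 and 3 (128 against 163 and 37.9 against 102). Both other Gfap probe sets were lower in SP in pair 3 (3.63 against 19.1 and 4.23 against 16.1). The share of all genes higher in 3 of 3 pairs was not counted, so nothing is read from these counts.

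The difference of the SP effects between line 3447 and neurospheres was called for 0 members and 0% of genes (limma), with 0 members and 266 genes at an unadjusted p under 0.05. Its smallest unadjusted p among members was for Hepacam, at -0.91 ± 0.53 log2 units (adjusted p = 0.999). Averaged over both origins, 0 members were called, where 0.143% of genes were called higher and 0.0252% lower. Mlc1, at 0.65 ± 0.30 (limma adjusted p = 0.554), was the 1 member with an unadjusted p under 0.05, which 1046 genes had. The part of this average from line 3447 rests on arrays where Mlc1 was, on all but 1, below the array median.

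The members were also set against each other over the 15 arrays, as a description of levels that share the same arrays and the same split between tumour and neurosphere cells. Pearson's r of log2 levels was highest between Mlc1 and Slc4a4, at 0.98, and was 0.84 between Hepacam and Gja1. Gfap had values of -0.21 to 0.03 with the others. Once each group's mean was taken off, the 15 pairs ran from -0.58 (Slc4a4 and Gfap) to 0.60 (Hepacam and Aqp4) with a median of -0.01. The genes most like the mean of the 6 members in level were Pde2a (0.968), a phosphodiesterase, Wnt5a (0.964), a secreted WNT ligand, Itga7 (0.960), an integrin subunit, Lrig1 (0.960), a membrane regulator of growth factor receptors, and Vcam1 (0.958), a cell adhesion molecule. In deviations from the group means they were Sfxn5 (0.921), Syt11 (0.905), Nme5 (0.878), Ephx4 (0.869) and Ghr (0.861).

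The other connexins ran the opposite way to Gja1 in 3 cases. Of 12 connexin genes on the array, 5 besides Gja1 were tested, and Gjc3, Gjb2 and Gja3 lay wholly above the neurosphere arrays in each tumour comparison, as did 18.2% of all genes in 3447 SP, 19.4% in 4346 SP and 21.3% in 3447 non-SP. Gjc3, the connexin 29 gene of oligodendrocytes and Schwann cells, averaged 3064 ± 474 in 3447 SP, 2225 ± 325 in 3447 non-SP and 2799 ± 693 in 4346 SP, against 91.9 ± 49.0 in neurosphere SP and 111 ± 60.9 in neurosphere non-SP (SD, n = 3 each). Of the 8 oligodendrocyte lineage markers, 6 also had a higher mean in each tumour group than in the matching neurosphere fraction, while Olig1 and Olig2 had a lower one. Gjb2 (connexin 26) differed by 3.11 ± 0.37, 2.47 ± 0.37 and 2.09 ± 0.37 log2 units in 3447 SP, 4346 SP and 3447 non-SP against the matching neurosphere fraction, and Gja3 (connexin 46) by 1.80 ± 0.37, 2.05 ± 0.37 and 1.85 ± 0.37. Gjc1 (connexin 45) gave -1.69 ± 0.41, -0.75 ± 0.41 and -1.78 ± 0.41, and lay wholly below in 3447 SP and 3447 non-SP. Gjd2 (connexin 36, mainly neuronal) gave -1.001 ± 0.88, -1.79 ± 0.88 and -2.26 ± 0.88, and lay wholly below in 4346 SP. Between 3447 SP and 4346 SP, 0 of the 5 were called by limma and 1 had an unadjusted p under 0.05, and Gjc1 had the smallest p among them, at -0.94 ± 0.41 (limma adjusted p = 0.264).

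The endfoot genes that work with AQP4 and MLC1 were not low in the tumour cells as a group. Of 13 such genes tested besides the members, 0 lay wholly below in 3447 SP and 4346 SP and 2 in 3447 non-SP, where 17.8%, 17.4% and 17.5% of all genes did. Wholly above lay 4, 5 and 2, where 18.2%, 19.4% and 21.3% of all genes did. Their median log2 differences were 0.46, 0.29 and 0.34, where the median over all genes was -0.03, 0.02 and 0.04. Kcnj10, the potassium channel gene of the endfoot, averaged 490 ± 147 in 3447 SP, 669 ± 258 in 3447 non-SP and 488 ± 87.6 in 4346 SP, against 321 ± 226 in neurosphere SP and 231 ± 72.0 in neurosphere non-SP. Sntb1, a syntrophin of the dystrophin complex, differed by 2.86 ± 0.40 in 3447 SP and 3.29 ± 0.40 in 4346 SP. In 3447 non-SP it differed by 0.85 ± 0.40, and the groups overlapped. Cav1, the caveolin of membrane pits, was the 1 gene of the list called between the lines, where 1.19% of all genes were called lower in 3447 SP. Its mean was 420 ± 93.1 in 3447 SP and 3470 ± 793 in 4346 SP (log2 difference -3.01 ± 0.32, limma adjusted p = 5.13e-05). Line 4346 SP also had the highest summed signal of 6 pericyte and fibroblast markers, 7622 to 8052 against 1135 to 3123 in 3447 SP. This sum was mostly 1 gene, Col1a1, with a mean of 7532 in 4346 SP and 1843 in 3447 SP. The 4 markers tested split 2 higher and 2 lower in 3447 SP than in 4346 SP, with 0 called by limma and 1 at an unadjusted p under 0.05, and Col1a2 and Dcn lay below the array median on all 4346 SP arrays. The part of these markers in the difference of Cav1 or Gja1 was not tested.

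Several genes of astrocyte membrane transport were low in the tumour cells. Of 14 tested, 8 lay wholly below in 3447 SP and 7 each in 4346 SP and 3447 non-SP, where 17.8%, 17.4% and 17.5% of all genes did, with median log2 differences of -1.28, -0.75 and -0.94. Car2, carbonic anhydrase 2, which makes bicarbonate from carbon dioxide, averaged 42.7 ± 41.2 in 3447 SP, 35.5 ± 12.01 in 3447 non-SP and 98.5 ± 36.2 in 4346 SP, against 3192 ± 781 in neurosphere SP and 2529 ± 770 in neurosphere non-SP. The GABA transporter gene Slc6a11 differed by -4.16 ± 0.57 in 3447 SP and -3.52 ± 0.57 in 4346 SP, and the mitochondrial glutamate carrier gene Slc25a18 by -4.02 ± 0.57 and -3.18 ± 0.57. Slc1a3, the glutamate transporter of radial glia and astrocytes, was still bright in the tumour cells but lay wholly below in each tumour comparison. Its difference was -1.42 ± 0.25 in 3447 SP, -0.61 ± 0.25 in 4346 SP and -2.40 ± 0.25 in 3447 non-SP. In the last comparison its mean was 2193 against 10858 in neurosphere non-SP. Between the lines 0 of the 14 were called by limma, and 3 had an unadjusted p under 0.05. Car2 had the smallest p there, at -1.41 ± 0.37 log2 units (limma adjusted p = 0.0681).

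The wider astrocyte list was split. Of 39 identity genes tested, 15, 13 and 14 lay wholly below the neurosphere arrays in 3447 SP, 4346 SP and 3447 non-SP, and 7, 6 and 8 wholly above, with medians of -0.02, -0.06 and 0.10. Of all genes, 17.8%, 17.4% and 17.5% lay wholly below and 18.2%, 19.4% and 21.3% wholly above. The counts wholly above were near the share of all genes, so nothing is read from them. S100b, whose promoter also drives the transgene, averaged 4106 ± 988 in 3447 SP, 5050 ± 753 in 3447 non-SP and 3773 ± 688 in 4346 SP, against 256 ± 147 in neurosphere SP and 205 ± 237 in neurosphere non-SP. Ndrg2 differed by 2.50 ± 0.31 in 3447 SP and 2.60 ± 0.31 in 4346 SP, while Rgs20, a regulator of G protein signalling, gave -4.00 ± 0.40 and -3.48 ± 0.40. Gldc, the glycine decarboxylase gene, was the 1 identity gene called between the lines, where 1.19% of all genes were called lower in 3447 SP. Its mean was 73.6 ± 22.2 in 3447 SP and 257 ± 99.6 in 4346 SP (-1.89 ± 0.38, limma adjusted p = 0.0164).

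**Figure D4:**
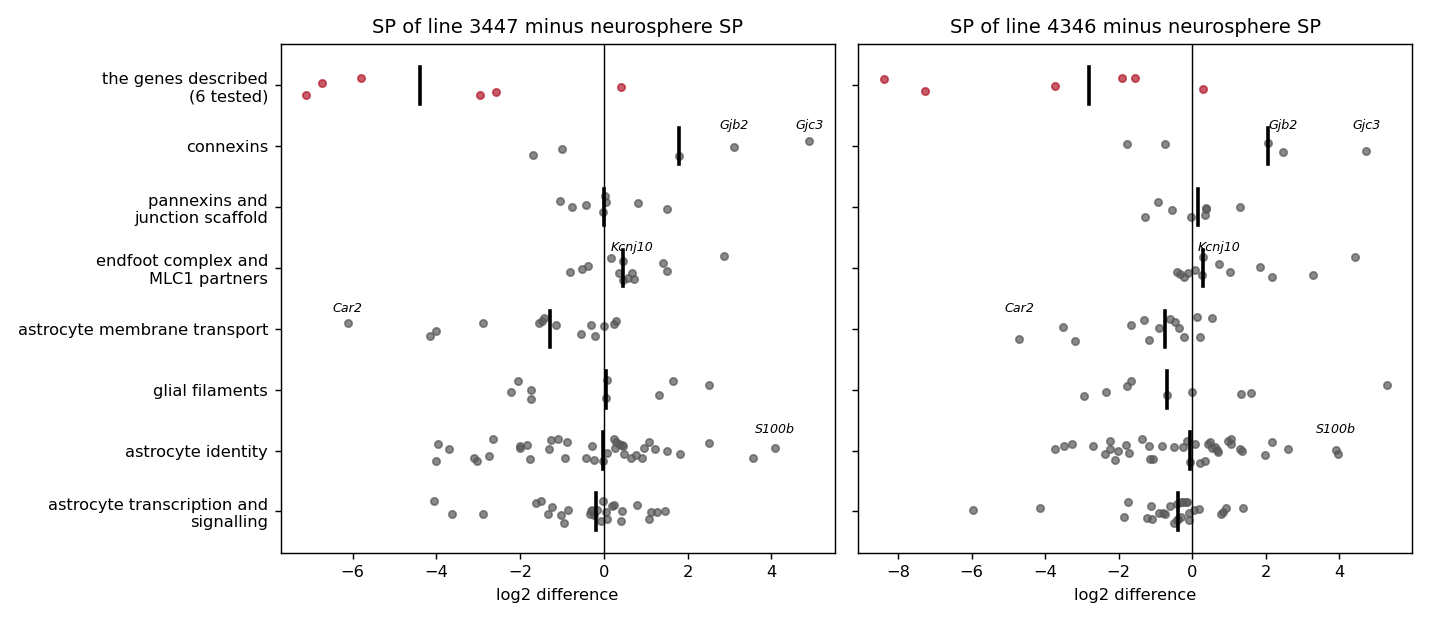
Log2 difference from the matching neurosphere fraction (horizontal axis) for the genes described and for lists of related genes (vertical axis), with points for genes and bars for list medians. Membrane transport genes reach far below 0, endfoot genes centre near 0.46 in 3447 SP, and 3 connexin genes stand above 0.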

How the data were processed

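Signals were measured on 15 Affymetrix mouse arrays. The authors deposited linear intensities, namely MAS5 signals from Affymetrix Expression Console, per the submitters' processing notes (version not given in the sources used here). Per the labels, RNA was isolated with RNeasy Micro columns and amplified and labelled with the NuGEN Ovation Pico kit. Each array had the same trimmed mean, 500 (2% trimmed at either end), but medians differed by 2.23-fold, so signals were quantile normalized and log2 of the value plus 16 was taken, which understates the change of dim genes. Signals in the text are as deposited.

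Of 45101 probe sets, 64 controls were left out, and 34945 of the rest carried 1 gene symbol in the platform annotation, 932 several and 9160 none. Probe sets were kept where they exceeded the array's own median on 3 or more arrays (26256), and the brightest represented each gene, which left 11908 of 18193 genes tested. limma 3.58.1 in R 4.3.3 was fitted to all 15 arrays with 5 group means and 10 residual degrees of freedom, a trend of the variance on the level, two-sided tests and Benjamini-Hochberg adjustment over all genes at 0.05. There were 5 tested and 3 described comparisons. On simulated data for 3447 SP against 4346 SP over 11908 genes, 34.3%, 74.6% and 95.5% of changes of 1, 2 and 4 log2 units were recovered. There each gene had 1 mean and 1 normal spread in all groups, with changes added to 3447 SP only. The real groups differ in mean and spread, so these shares are not the recovery in the real data. The number of arrays limits the precision. Replicates of a tumour line share 1 tumorsphere isolate, so p-values measure the spread between these samples.

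The members, gene lists and rules were chosen with earlier results of these data known. Besides the members, the genes named are the 5 most correlated in level and the 5 in deviation, predicted genes left out, and up to 6 genes per list (connexins, endfoot, membrane transport, identity) with the smallest p; other lists are given as counts and sums. Equal replicate numbers correlated in neurospheres (r of deviations from the group means 0.577, 0.522 and 0.621), so they pair those arrays. In line 3447 they did not (-0.225, -0.249 and -0.120). Alternatives changed the scaling, the added constant, the filter, the probe sets of a gene, the groups fitted, the spread, the replicate block and the arrays left out. Promoter windows and their sequences came from RefSeq on GRCm38.p6.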

Additional observations from a re-analysis of the deposited data

How the results depend on the processing

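The counts of 5 genes below neurospheres stayed at 4 to 6 under each alternative run (6 with no filter, where Gjb6 was added), and at 5 whichever array was left out and without both arrays that stood apart. In the comparisons of SP with non-SP, their difference and their average, 0 members were called under each alternative, the replicate block included (0 members with the block in both origins or among neurospheres only, for Mlc1 in line 3447 an adjusted p of 0.533 and 0.487). Between 3447 SP and 4346 SP, 1 member was called, Gja1. The count was 2 with signals as deposited, where Mlc1 gave 1.64 (adjusted p = 0.0466), 0 with an added constant of 1 (Gja1 -4.28, adjusted p = 0.0636), 0 without both arrays that stood apart (chosen after seeing the data), and 0 to 1 with single arrays left out. Gja1 stayed lower throughout, at -4.87 to -2.97 with single arrays left out (adjusted p from 0.00184 to 0.0542) and -4.28 to -3.28 under the other alternatives (0.000143 to 0.0863). Values that changed sign were described without a test or not called: Gfap against the matching neurosphere fraction ran from -0.48 to 1.10 in 3447 SP, -0.48 to 0.72 in 4346 SP and -0.52 to 0.81 in 3447 non-SP with single arrays left out, Gfap between the lines from -0.39 to 0.88 with single arrays left out, Aqp4 of SP against non-SP in line 3447 from -0.21 to 0.75 (-0.21 without both arrays), and Slc4a4 between the lines from -0.070 to 0.92 (-0.22 without both arrays). The cause was not tested. The sizes of described differences depend on the added constant and on the probe sets: for 4346 SP against neurosphere SP, Mlc1 gave -10.15 with a constant of 1 and -6.84 with 64, and Slc4a4 -3.97 as the mean of its probe sets. Centring arrays on their medians moved the median of all genes by -0.34 to 0.18. Signals below the array median have no order between groups.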

Other observations

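Among genes of astrocyte transcription and signalling, 28 were tested, and 2 were called between 3447 SP and 4346 SP, both higher in 3447 SP. Of all genes, 0.462% were called higher and 1.19% lower. Both called genes are named after their values were seen. Rfx4, a transcription factor of neural progenitors, averaged 170 ± 22.6 in 3447 SP and 14.9 ± 10.96 in 4346 SP (log2 difference 2.35 ± 0.36, limma adjusted p = 0.00245), with 2181 ± 1051 in neurosphere SP (SD, n = 3 each). Stat3, a factor that acts downstream of cytokine receptors, averaged 531 ± 141 in 3447 SP and 117 ± 33.5 in 4346 SP (1.92 ± 0.45, limma adjusted p = 0.0405). The list's median difference from neurosphere SP was -0.20 in 3447 SP and -0.40 in 4346 SP.

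Of 9 genes tested besides Gfap in a list of glial and other filament genes, Bfsp2 was called between the lines and Lmna in the average of both SP comparisons. Of all genes, 1.19% were called lower in 3447 SP between the lines and 0.143% higher in the average. Bfsp2 and Lmna are named after their values were seen. Bfsp2, which encodes a lens filament protein, averaged 202 ± 72.5 in 3447 SP and 1671 ± 1356 in 4346 SP (-2.79 ± 0.46, limma adjusted p = 0.00384). Lmna, the gene of the nuclear lamins A and C, averaged 8278 ± 908 in 3447 SP and 4418 ± 1128 in 3447 non-SP, and 3534 ± 683 in neurosphere SP and 1844 ± 546 in neurosphere non-SP (limma adjusted p = 0.0444 for the average). Of 8 genes of pannexins and junction scaffolds, 0 were called between the lines by limma and 1 had an unadjusted p under 0.05, and their median difference from neurosphere SP was -0.00 in 3447 SP and 0.16 in 4346 SP.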
